A study of Mus musculus with 4 samples.

Results

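The respiratory chain genes of this series are 97 of the 32285 genes counted in mouse eye sections. They were taken by symbol: the Nduf subunits of complex I, Sdha to Sdhd of complex II, the Uqcr subunits of complex III, the Cox4 to Cox8 subunits of complex IV, the Atp5 subunits of complex V, and the protein-coding genes of the mitochondrial genome. Of these, 84 are nuclear (37, 4, 8, 18 and 17 for complexes I to V) and 13 are mitochondrially encoded. The name ending in -ps, a pseudogene, was left out.

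The tissue was fresh-frozen posterior eye of C57BL/6J mice, cut as cryosections onto 4 Visium capture frames. In Visium, a grid of barcoded spots captures RNA from the tissue above, and each captured molecule is counted once as a unique molecular identifier (UMI). All 4 frames carry one treatment label, Naive+AAV2/2, and are titled as biological replicates. The study used adeno-associated virus AAV2/2 with CMV-Wif1-HA-IRES-GFP or CMV-Wif1-HA, where CMV is a promoter active in many cell types, and CMV-IRES-GFP as its control virus. It examined a control group and eyes taken 2 weeks and 4 weeks after injection of the Wif1 virus. The labels do not say which frame or section holds which condition, so a frame may mix conditions and no condition was compared here. What was compared is the regions within a frame. The labels do not say how the frames divide between animals, so a spread over frames may be partly technical. They name the molecule as nuclear RNA, but mitochondrially encoded transcripts were present in every frame.

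Oxidative phosphorylation passes electrons from NADH through complex I, or from succinate through complex II, to ubiquinone, then through complex III and cytochrome c to oxygen at complex IV. The protons pumped along the way drive ATP synthase, complex V. Complex II is built from nuclear genes alone, and the other complexes join nuclear subunits to subunits made inside the mitochondrion. In the retina, rod inner segments, synaptic layers and unmyelinated ganglion cell axons are known to be rich in mitochondria. A ratio of nuclear to mitochondrially encoded transcripts compares RNA from these separate genomes and is not a measure of respiration.

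Nuclear members held 58502 UMIs, 1.66% of all 3522010, and mitochondrially encoded members 93598, or 2.66%. Complex I subunits summed to 27979 UMIs, complex II to 816, complex III to 2759, complex IV to 16381 and complex V to 10567. UMIs count captured transcript ends and were compared between regions, not between genes. Ndufa4 alone held 19549 UMIs, 33.4% of the nuclear members' total, and Cox7a2 held 9679, or 16.5%. Together they made up 49.96% of the nuclear sum, and the next member, Atp5h, made up 3.34%. NDUFA4 protein was long assigned to complex I and was later found with complex IV, and COX7A2 is the general isoform of a small complex IV subunit. At the other end, Cox7b2 and Cox8c had 0 UMIs and 9 nuclear members had fewer than 100.

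The promoters of nuclear members are shown because many of these genes are known targets of the transcription factors NRF1 and GABP (also called NRF2). RefSeq gave a window from 250 bases before to 50 after the start for 68 of the 84 nuclear members, on build GRCm38.p6. Windows were searched on both strands for GCATGCGC, letters of the NRF1 site, and CCGGAAG, letters of the GABP site. Letters of the NRF1 site were in 10 of the 68 windows (14.7%), against 2.80% of 27025 gene windows in the table. The GABP letters were in 16 (23.5%), against 9.12%, and either was in 21 (30.9%), against 11.4%. Ndufa4 and Cox7a2, the 2 nuclear members with the largest UMI counts, held neither. Atp5h, the complex V subunit d, held GABP letters, and Atp5k, a complex V subunit, held both. A muscle E-box, CAGCTG, was added after the sequences were seen: 6 windows held it (8.82%), against 16.1% of all, and Cox8b, the muscle form of COX8, held it at 2 places. The windows are, on the minus strand in each case, chr6:11907401-11907700 for Ndufa4, chr9:79759804-79760103 for Cox7a2, chr11:115419870-115420169 for Atp5h, chr5:108434350-108434649 for Atp5k and chr7:140900397-140900696 for Cox8b. They are printed 5′ to 3′ on the gene's strand, with matched letters in capitals.
Ndufa4: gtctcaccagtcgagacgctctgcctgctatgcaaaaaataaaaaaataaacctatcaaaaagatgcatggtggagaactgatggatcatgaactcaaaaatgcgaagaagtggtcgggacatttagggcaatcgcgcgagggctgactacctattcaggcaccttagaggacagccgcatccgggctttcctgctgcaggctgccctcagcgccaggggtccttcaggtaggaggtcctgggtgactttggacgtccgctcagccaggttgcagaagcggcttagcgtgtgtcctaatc
Cox7a2: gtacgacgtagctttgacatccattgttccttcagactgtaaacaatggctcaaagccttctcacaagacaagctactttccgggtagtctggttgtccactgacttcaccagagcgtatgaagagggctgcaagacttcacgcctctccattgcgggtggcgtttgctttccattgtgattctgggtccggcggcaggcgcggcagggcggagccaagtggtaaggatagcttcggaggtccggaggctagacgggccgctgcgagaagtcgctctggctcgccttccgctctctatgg
Atp5h: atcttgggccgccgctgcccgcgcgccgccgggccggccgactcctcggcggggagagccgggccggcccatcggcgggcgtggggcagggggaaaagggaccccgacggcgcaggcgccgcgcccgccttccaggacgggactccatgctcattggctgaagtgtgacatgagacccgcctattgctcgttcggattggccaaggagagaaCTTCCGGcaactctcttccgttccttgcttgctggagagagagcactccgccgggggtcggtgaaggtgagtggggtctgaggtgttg
Atp5k: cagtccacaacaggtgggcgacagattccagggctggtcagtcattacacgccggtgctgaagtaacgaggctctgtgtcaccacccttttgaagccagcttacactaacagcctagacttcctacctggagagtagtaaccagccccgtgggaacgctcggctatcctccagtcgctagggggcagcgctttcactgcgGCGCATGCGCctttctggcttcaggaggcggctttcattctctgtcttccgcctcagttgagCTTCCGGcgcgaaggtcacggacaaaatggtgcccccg
Cox8b: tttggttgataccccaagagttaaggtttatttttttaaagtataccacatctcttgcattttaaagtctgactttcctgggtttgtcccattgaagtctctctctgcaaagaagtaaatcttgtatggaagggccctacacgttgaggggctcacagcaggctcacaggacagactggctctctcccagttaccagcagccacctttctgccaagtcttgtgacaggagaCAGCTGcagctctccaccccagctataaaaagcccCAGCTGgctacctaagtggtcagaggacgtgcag
In Atp5k, overlapping NRF1 matches began at bases -50 and -48 from the start, and the GABP match at base 13. The Atp5h match began at base -38, and the Cox8b matches at -19 and 17. These matches describe the letters in the windows, and binding was not measured.

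Spots were placed into regions by a panel of 105 marker genes that holds no respiratory chain gene. A spot took the marker class most above its expected count. Of 4603 spots over tissue, 2180 were placed: 938 rod (rod photoreceptor genes), 157 inner nuclear (bipolar, amacrine and Müller glia genes), 434 ganglion, 326 pigmented (retinal pigment epithelium and melanocyte genes), 106 fibrous (collagen genes), 55 muscle, 81 optic nerve (oligodendrocyte genes), and small epithelium (37) and blood (46) regions not used here. Nerve spots were found in frames 2 to 4 alone. Frames held 674029 to 1066633 UMIs. Median UMIs per spot were 852 in the rod region, 1405 in the inner nuclear, 1313 in the ganglion, 692.5 in the pigmented, 1070 in the fibrous, 508 in the muscle and 389 in the nerve region. Any 2 frames shared 220 to 824 spot barcodes, which name grid positions.

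A spot covers several cells, and the regions are mixtures. Rod panel genes summed to 81270 UMIs per 1000000 UMIs of the region (CPM) in the rod region. They still summed to 12383 in the inner nuclear, 24156 in the pigmented, 28972 in the fibrous and 26870 in the muscle region, against 2397 in the nerve. In 2 regions the region's own panel was below the rod panel: inner nuclear (8097 CPM) and fibrous (8659 CPM). The nerve region held astrocyte genes at 5257 to 10943 CPM, against 297 to 402 in the ganglion region. Cone genes moved with the rod region, at 1014 to 1116 CPM against 47.3 to 105 in the ganglion region. The part of these other cells in the results was not tested. In sums of this kind, fewer cells of a type and less RNA per cell cannot be told apart.

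The nuclear to mitochondrial ratio, the summed UMIs of the 84 nuclear members over those of the 13 mitochondrially encoded members, was lowest in the optic nerve region. In frames 2 to 4 it was 0.121, 0.263 and 0.148 there, a mean of 0.177 ± 0.075 (SD, n = 3). No other region had a frame below 0.376. The inner nuclear region had 0.551, 0.516, 0.492 and 0.376 in frames 1 to 4 (0.484 ± 0.076, n = 4). The rod region had 0.785, 0.714, 0.739 and 0.655 (0.723 ± 0.054), and the ganglion region 0.704, 0.582, 0.594 and 0.694 (0.644 ± 0.064). So the inner nuclear region lay below both of its neighbours without overlap, while the rod and ganglion ranges overlapped. Much of that separation came with Ndufa4 and Cox7a2: the log2 difference in the ratio for inner nuclear minus rod was -0.59 ± 0.15 with them and -0.19 ± 0.16 without (0 of 4 frames higher both times). For ganglion minus inner nuclear it was 0.42 ± 0.32 (4 of 4 frames higher) with them and 0.28 ± 0.25 (3 of 4) without.

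Outside the neural retina the ratio varied more between frames. It was 1.08, 0.792, 0.658 and 0.413 in the pigmented region (0.736 ± 0.278), 0.943, 0.947, 0.885 and 0.615 in the fibrous region (0.847 ± 0.157) and 0.856, 0.946, 0.793 and 0.520 in the muscle region (0.779 ± 0.184). Frame 4 was the lowest in each of these 3 regions, and in the rod and inner nuclear regions as well. By mean the order was nerve, inner nuclear, ganglion, rod, pigmented, muscle, fibrous. Only the steps from nerve to inner nuclear and from inner nuclear to ganglion had no overlap between frames.

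**Figure D1:**
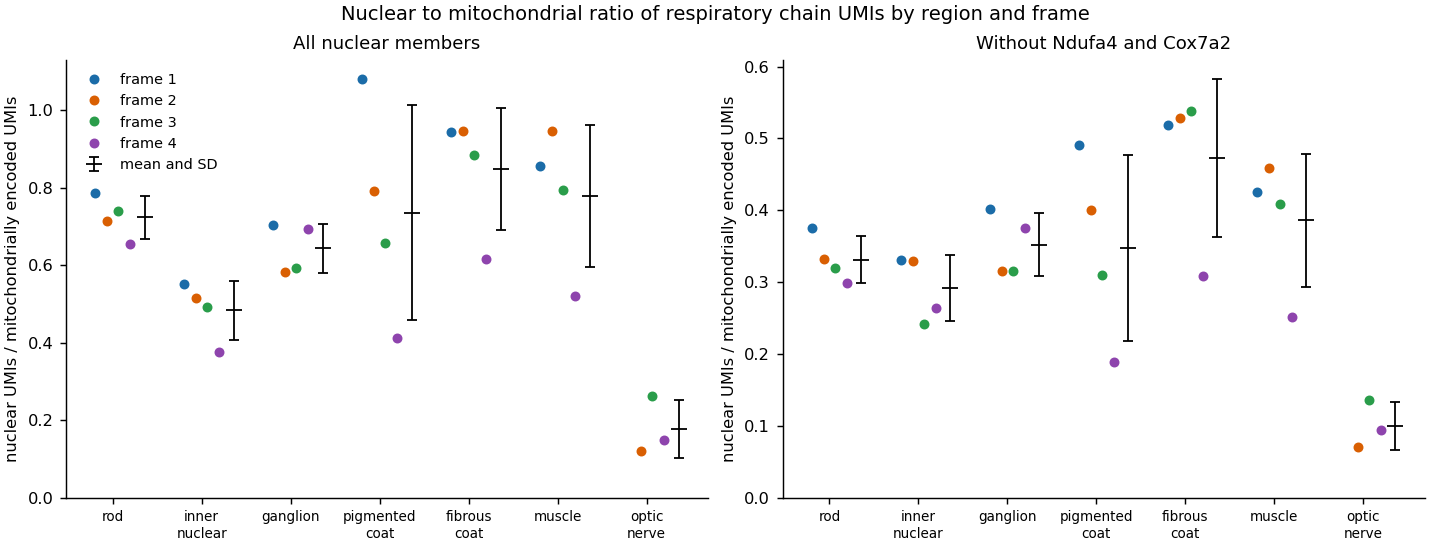
The nuclear to mitochondrial ratio in each region (x axis), with 1 point per frame and a bar at the mean over frames. The 3 nerve frames sit between 0.121 and 0.263, below every frame of the other regions.

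In the rod region the nuclear sum was 19651, 21665, 19215 and 19676 CPM (20052 ± 1096, n = 4). It was 14365 ± 1519 in the inner nuclear and 15269 ± 1354 in the ganglion region, and every frame of both lay below every rod frame. Within frames the inner nuclear sum was 0.49 ± 0.17 (SD of log2 differences) lower and the ganglion sum 0.40 ± 0.12 lower on the log2 scale. Without Ndufa4 and Cox7a2 these differences were -0.09 ± 0.10 and -0.14 ± 0.14, each below 0 in 3 of 4 frames. The mitochondrially encoded sum was 27851 ± 2743 CPM in the rod, 29904 ± 1985 in the inner nuclear and 23899 ± 3096 in the ganglion region. These last ranges overlapped between rod and each neighbour.

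Complex I, with Ndufa4 counted in it, carried most of the nuclear difference between retinal layers. Its sum was 10282, 11797, 11039 and 11218 CPM in the rod region, 6092 ± 1197 in the inner nuclear region and 6307 ± 380 in the ganglion region. The difference within frames was -0.88 ± 0.32 (log2) for inner nuclear minus rod and -0.81 ± 0.14 for ganglion minus rod, below 0 in 4 of 4 frames for both. With Ndufa4 left out, a choice made after the data were seen, complex I came to 2658 ± 262 CPM in the rod, 2546 ± 493 in the inner nuclear and 2481 ± 346 in the ganglion region. The log2 differences were then -0.08 ± 0.19 and -0.10 ± 0.18, smaller than their spread over frames. The remaining complex I members summed to overlapping levels in these 3 retinal layers.

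Complex II, which feeds electrons from succinate, had few UMIs. Its sums were 248 ± 27.9 CPM in the rod, 291 ± 32.2 in the inner nuclear region, 222 ± 32.4 in the ganglion region and 172 ± 68.9 in the nerve region, and no member had enough counts for the test described next. Complex III, the cytochrome bc1 complex, was at 876 ± 63.4 CPM in the rod, 771 ± 232 in the inner nuclear and 761 ± 115 in the ganglion region, with overlap. Complex IV, cytochrome c oxidase, was 4283 ± 438 CPM in the rod, 4136 ± 573 in the inner nuclear and 5115 ± 675 in the ganglion region. The ganglion sum of complex IV exceeded the rod sum within each of 4 frames, by 0.25 ± 0.08 (log2). Without Cox7a2 that difference was 0.14 ± 0.14, no larger than its spread. Its direction also depends on counting Ndufa4 with complex I. Counted with complex IV, Ndufa4 would put the ganglion sum below the rod sum, because its level was much higher in the rod region. Complex V, ATP synthase, was 3561 ± 333 CPM in the rod, 3075 ± 441 in the inner nuclear and 2864 ± 363 in the ganglion region, and within frames it was below rod in 4 of 4 for both neighbours (by 0.22 ± 0.18 and 0.32 ± 0.10 on the log2 scale).

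**Figure D2:**
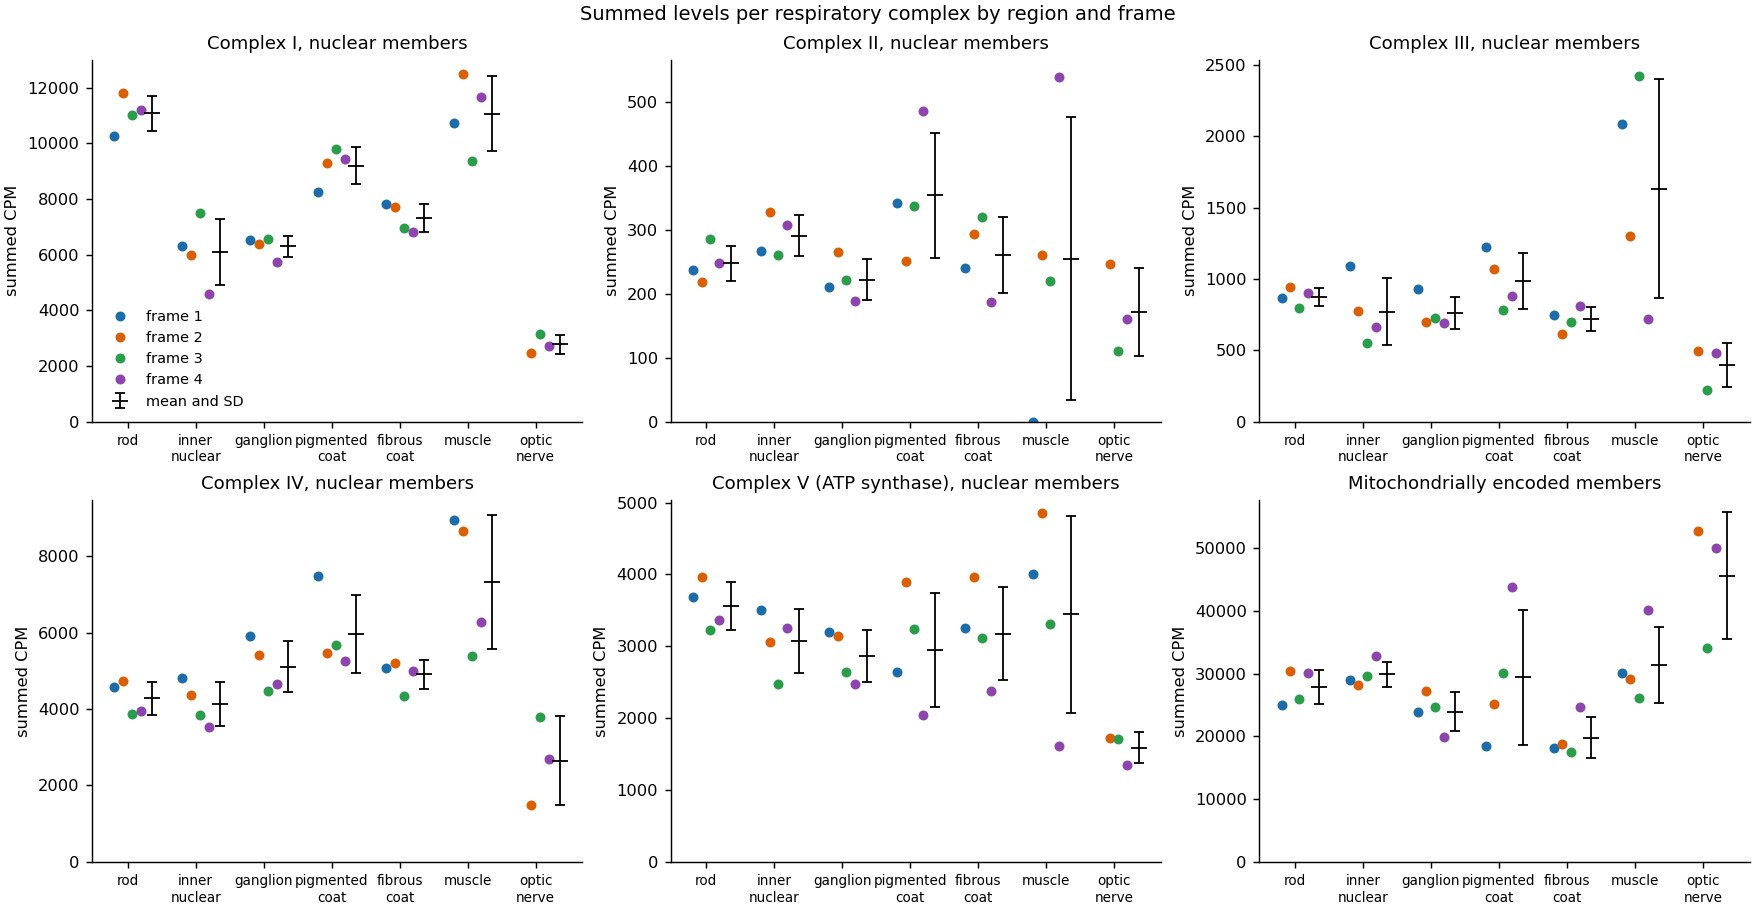
Summed CPM of each complex's nuclear members and of the mitochondrially encoded members by region, with 1 point per frame and a bar at the mean. Complex I, which includes Ndufa4 here, sits highest in the rod and muscle regions and lowest in the nerve region. The mitochondrially encoded sum in the nerve region is 34094 to 52696 CPM.

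Ndufa4 was at 7463, 8948, 8758 and 8533 CPM in the rod region. It was at 3341, 3022, 5403 and 2420 CPM in the inner nuclear region and at 3546, 4030, 4252 and 3477 CPM in the ganglion region. Every rod frame lay above every frame of both neighbours. Elsewhere its means were 6621 ± 631 CPM in the pigmented, 4610 ± 490 in the fibrous, 7501 ± 761 in the muscle and 1444 ± 240 in the nerve region. Cox7a2 did not follow it: its levels were 2438 ± 313 CPM in the rod, 2135 ± 722 in the inner nuclear, 3085 ± 476 in the ganglion, 3658 ± 984 in the pigmented, 2690 ± 425 in the fibrous, 4500 ± 1488 in the muscle and 1801 ± 732 in the nerve region. Frames of Cox7a2 overlapped between the rod region and each of these others except pigmented.

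**Figure D3:**
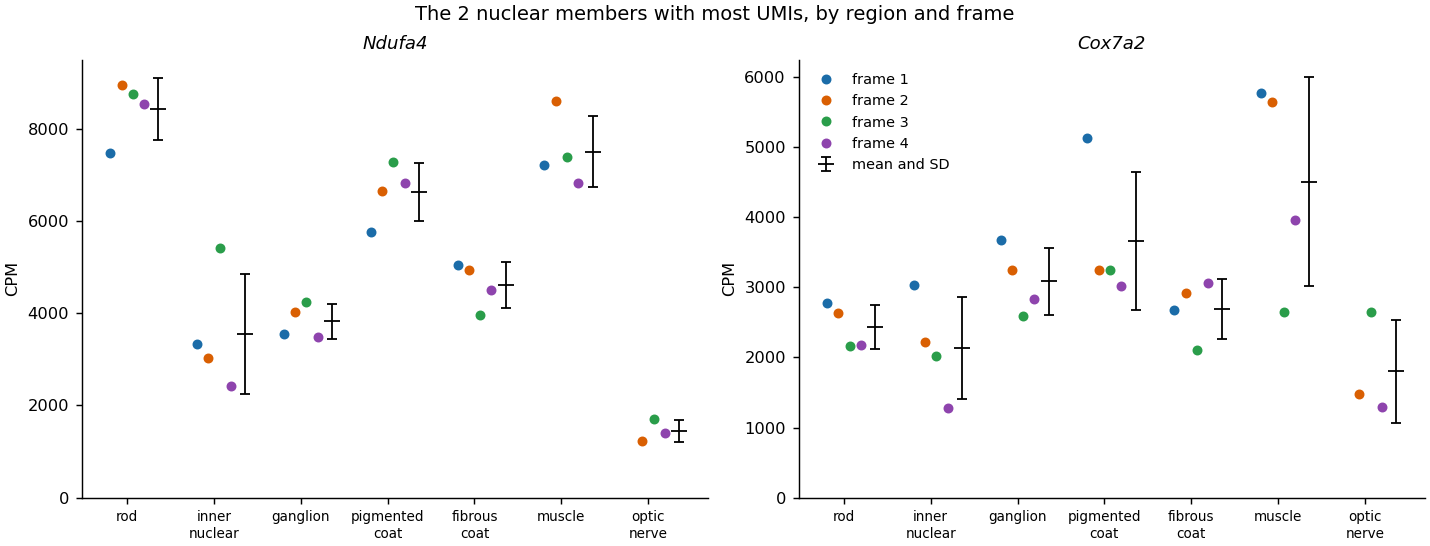
Levels of Ndufa4 and Cox7a2 in CPM by region, with 1 point per frame and a bar at the mean. Ndufa4 is 7463 to 8948 CPM in the rod region and 2420 to 5403 CPM in the inner nuclear and ganglion regions, whereas Cox7a2 shows no such separation.

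Single genes were tested on UMIs summed per frame and region, by edgeR's quasi-likelihood test with the frame as a block, with Benjamini-Hochberg adjustment over all 1465 genes that passed a filter on low counts. Of the 97 members 37 were tested: 5 of complex I, 3 of III, 9 of IV, 8 of V and 12 mitochondrially encoded. Log2 fold changes are given ± SE. Regions lie side by side, so the values of a frame share its library. All comparisons with the rod region share the rod values.

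Between the inner nuclear and rod regions, 1 of 37 members tested was higher and 3 were lower, against 21.6% of all genes tested higher and 16.9% lower. Both member shares were below those of all genes. Ndufa4 was lower in the inner nuclear region (log2 -1.54 ± 0.23, adjusted p = 1.92e-07, in 4 of 4 frames). Atp5h, a stalk subunit of ATP synthase, was at 798, 892, 690 and 713 CPM in the rod region and 491 ± 141 in the inner nuclear region, and was also lower (-0.88 ± 0.26, adjusted p = 0.00544). Atp5b, the catalytic beta subunit, was lower too (-0.73 ± 0.30, adjusted p = 0.0467), but missed the limit of 0.05 without frame 1 (0.27), frame 2 (0.24) or frame 3 (0.078), and in 9 of 15 settings in all. Atp5h missed it in 2 of 15 (Leiden regions and at least 50 panel UMIs, up to 0.200). Scaling to library totals in place of TMM (trimmed mean of M-values) factors moved the median of all genes by 0.28 and the share of higher among called genes from 56.1% to 69.9%.

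mt-Nd6, at positions 13552 to 14070 of the mitochondrial genome, is the subunit gene transcribed from the opposite strand to the other 12. Its level was 208, 205, 358 and 484 CPM in the inner nuclear region, 67.9, 102, 141 and 192 CPM in the rod and 93.9, 83.9, 81.5 and 108 CPM in the ganglion region. It was higher in inner nuclear than rod (1.02 ± 0.39, adjusted p = 0.0324) and lower in ganglion than inner nuclear (-1.61 ± 0.41, adjusted p = 0.00355). The former missed the limit when any frame was left out (adjusted p from 0.093 to 0.12), and the latter kept it (0.0098 to 0.046). The latter was lost with no filter, Leiden regions and at least 50 panel UMIs, with adjusted p up to 0.254, and the former also with no filter, no frame block and those region rules (up to 0.534). As a share of mitochondrially encoded UMIs, which needs no scaling between libraries, mt-Nd6 was 0.718%, 0.727%, 1.21% and 1.48% in the inner nuclear region. The share was 0.272%, 0.335%, 0.542% and 0.641% in the rod region, so the frames of these 2 regions did not overlap. These values rest on 63 UMIs in the inner nuclear region and 121 in the rod region. Between ganglion and inner nuclear regions mt-Nd6 was the 1 member called lower and 0 were called higher, against 11.5% and 8.05% of all genes. At an unadjusted p under 0.05, edgeR had 3 higher and 3 lower of 37, in each direction a smaller share than among all 1465 genes. DESeq2 called 4 members, against 340 of all genes, which is again a smaller share.

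Between the ganglion and rod regions, 1 member was higher and 9 were lower of 37 tested, against 26.9% and 25.4% of all genes. The 9 lower are 24.3% of the members tested, close to that background. Ndufa4 was lower (-1.35 ± 0.22, adjusted p = 4.43e-07). Atp5h was lower (-0.92 ± 0.24, adjusted p = 0.000876), as was Atp5e, the epsilon subunit of the ATP synthase rotor (-1.29 ± 0.37, adjusted p = 0.00237). Atp5e was at 263, 270, 200 and 239 CPM in rod and 180, 108, 81.5 and 101 in ganglion frames, which did not overlap. Atp5b (-0.62 ± 0.26, adjusted p = 0.0367) was among the 9 but outside the rule for naming. Uqcrq, a small complex III subunit, was lower (-1.02 ± 0.43, adjusted p = 0.0405), but lost the call in 6 of 11 settings. These were DESeq2, no TMM factors, no filter, Leiden regions, at least 50 panel UMIs and frame 4 left out, with adjusted p from 0.00576 to 0.437 over the settings. Cox7b, a structural complex IV subunit, went the other way: 470, 424, 454 and 406 CPM in the ganglion region against 242, 294, 178 and 202 in the rod region (0.73 ± 0.27, adjusted p = 0.0207). Its frames did not overlap, and its adjusted p was 0.079 without frame 1 and 0.12 without frame 3. It also lost its call with no filter and with spots low in rod markers (up to 0.152).

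Among mitochondrially encoded genes, mt-Cytb, the cytochrome b of complex III, was lower in the ganglion region. Its level was 2771, 3354, 2790 and 2022 CPM against 4487, 4905, 3786 and 4295 in the rod region (-0.88 ± 0.23, adjusted p = 0.000857), without overlap. The complex I genes mt-Nd3 (-0.84 ± 0.27, adjusted p = 0.00615) and mt-Nd4 (-0.64 ± 0.22, adjusted p = 0.0118) and the ATP synthase gene mt-Atp8 (-1.39 ± 0.54, adjusted p = 0.0255) were lower as well. mt-Nd4 had an adjusted p of 0.067, 0.055 and 0.11 without frame 2, 3 or 4, and mt-Atp8 of 0.15 without frame 3. Over all settings run, mt-Nd4 lost its call in 6 of 15, mt-Atp8 in 5 of 11, mt-Nd3 in 2 of 15, and mt-Cytb in 0 of 15. mt-Co1 was not among them: it was at 3992, 4316, 4019 and 3443 CPM in the ganglion region and 2802, 3515, 3797 and 3614 in the rod region. So the composition of the mitochondrially encoded pool differed between these layers. mt-Cytb made up 17.9%, 16.2%, 14.6% and 14.3% of it in rod frames and 11.6%, 12.3%, 11.3% and 10.2% in ganglion frames.

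The filter on low counts is set by the smallest regions, so the retinal layers were also fitted alone. Ganglion against rod then tested 86 of 97 members among 4318 genes, with 2 higher and 25 lower, against 29.1% and 26.0% of all genes. By complex the lower members were 6 of complex I, 2 of III, 1 of IV, 8 of V and 8 mitochondrially encoded. They included Ndufb11, an accessory subunit of complex I (-1.47 ± 0.37, adjusted p = 0.00112) and Uqcrh, the complex III hinge subunit (-1.16 ± 0.31, adjusted p = 0.00217). Ndufb6, another accessory subunit of complex I, was higher (1.12 ± 0.41, adjusted p = 0.0219). These names were chosen after their values were seen. Inner nuclear against rod, fitted alone, tested 80 members among 3565 genes, with 1 higher and 8 lower, against 15.6% and 14.7%. With the filter set by these layers, the shares of lower members were 29.1% and 10.0%.

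**Figure D4:**
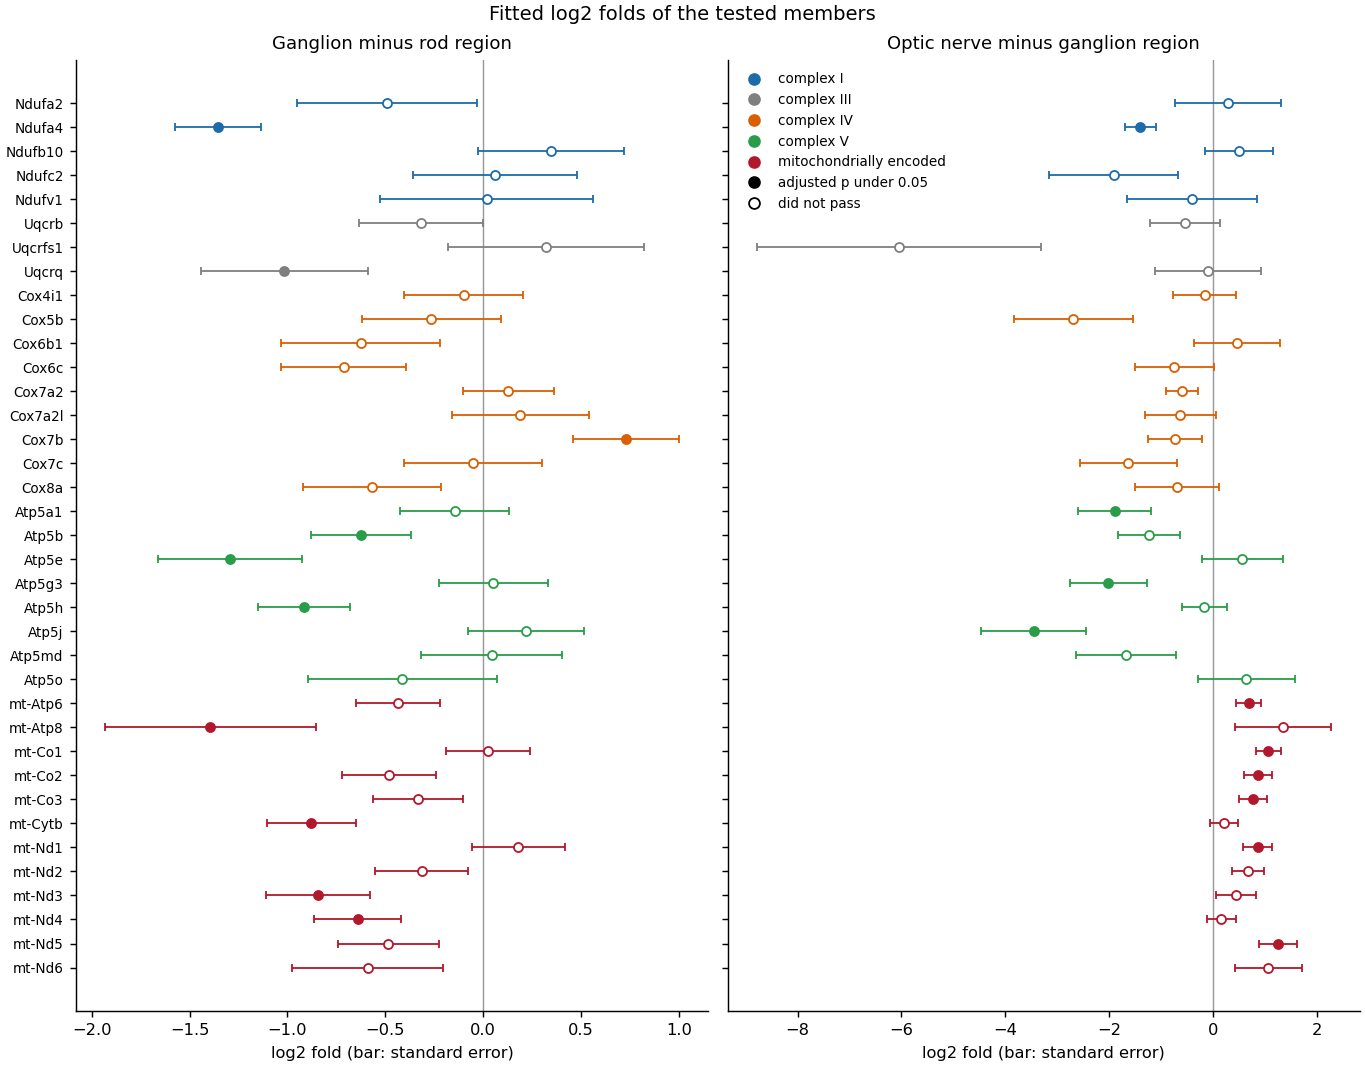
Log2 fold changes of each tested member in ganglion minus rod and in nerve minus ganglion, grouped by complex, with filled points for members that passed the adjusted limit. In nerve minus ganglion, 12 of 12 mitochondrially encoded members lie above 0 and 20 of 25 nuclear members lie below 0. Of all 1465 genes tested, 938 lie below 0 in that comparison.

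The optic nerve region, compared with the ganglion region whose axons run through it, had a nuclear sum of 6402, 8963 and 7403 CPM (7589 ± 1291, n = 3) against 15269 ± 1354. Its mitochondrially encoded sum was 52696, 34094 and 50048 CPM (45613 ± 10063) against 23899 ± 3096. Neither pair of ranges overlapped. Within frames the nuclear sum was 1.96-fold lower, the mitochondrially encoded sum 1.89-fold higher and the ratio 3.70-fold lower (log2 -1.89 ± 0.62, in 3 of 3 frames). Without Ndufa4 and Cox7a2 the ratio differed by -1.80 ± 0.50. Each nuclear complex had a mean below the ganglion mean, with log2 differences of -1.17 ± 0.18 for complex I, -0.91 ± 0.70 for III, -0.97 ± 0.83 for IV and -0.79 ± 0.14 for V. Counts were small: the 3 nerve frames held 26, 163 and 138 nuclear and 214, 620 and 933 mitochondrially encoded UMIs.

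In the test, 6 members were higher and 4 lower in the nerve, against 11.3% and 20.2% of all genes. The median log2 fold change of all genes was -0.57 in this comparison, and that of the nuclear members was -0.69. The nuclear members as a group thus lay near the shift of all genes. The 6 higher were all mitochondrially encoded, and the 4 lower were all nuclear. The complex IV core gene mt-Co1 was at 12558, 6654 and 11050 CPM in the nerve, above all ganglion frames (1.07 ± 0.25, adjusted p = 0.00052). mt-Nd5, of complex I, was at 1477, 825 and 1341 CPM against 379 to 466 (1.25 ± 0.37, adjusted p = 0.00667). The others were mt-Co2 (0.87 ± 0.28, adjusted p = 0.0126), mt-Nd1 (0.86 ± 0.28, adjusted p = 0.0151), mt-Co3 (0.78 ± 0.27, adjusted p = 0.0217) and mt-Atp6 (0.69 ± 0.25, adjusted p = 0.0261). On the scale of the test, mt-Co2, mt-Nd1 and mt-Co3 were higher in 2 of 3 frames. Within the mitochondrially encoded pool, mt-Co1 took 23.8%, 19.5% and 22.1% in the nerve and 15.8% to 17.4% in ganglion frames. mt-Cytb took 8.41%, 8.55% and 6.65% in the nerve and 10.2% to 12.3% in ganglion frames. Those shares did not overlap.

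The lower members were Ndufa4, at 1231, 1705 and 1395 CPM in the nerve (-1.39 ± 0.29, adjusted p = 0.000147), and the ATP synthase subunits Atp5j, Atp5g3 and Atp5a1. Atp5j, coupling factor 6 of the stalk, had 1 UMI in the nerve against 183 to 400 CPM in ganglion frames (adjusted p = 0.00641). No fold change is given for it, since 1 UMI cannot set its size. Atp5g3, a gene for the c-ring, had 3 nerve UMIs (adjusted p = 0.0308), and Atp5a1, the alpha subunit, had 4 (adjusted p = 0.0326; outside the rule for naming).

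The nerve calls of mitochondrially encoded genes were lost in several settings. Without frame 4, 0 members were higher and 4 lower, and mt-Co1 had a log2 fold change of 0.38 (adjusted p = 0.43). Without frame 3, 1 was higher and 4 lower, and mt-Nd5 had an adjusted p of 0.066. mt-Atp6 also missed the limit without frame 2 (0.13). With no filter on low counts, 0 were higher and 9 lower of 95 tested, against 125 and 654 of 16452 genes. With the 2 regions fitted alone, 0 were higher and 2 lower of 78 tested, against 71 and 214 of 3764 genes. With regions from Leiden clusters, 1 was higher and 10 lower, and of the 6 genes mt-Co1 kept its call. Scaling to library totals kept these calls, with 7 higher and 2 lower, and moved the share of higher among all called genes from 35.8% to 46.5%. Atp5j missed the limit without frame 3 (adjusted p = 0.079), and Atp5g3 without frame 1 (0.056), 2 (0.077) or 4 (0.13). Ndufa4 kept its call in each setting run.

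The outer coat was taken as the pigmented and fibrous regions together, against the 3 neural layers. Its nuclear sum was slightly higher within each frame (log2 0.13 ± 0.03, 4 of 4), with complex IV at 0.27 ± 0.09 (4 of 4). Without Ndufa4 and Cox7a2 the nuclear difference was 0.07 ± 0.16, above 0 in 2 of 4 frames, and complex IV was at 0.22 ± 0.15 (4 of 4). The mitochondrially encoded sum differed by -0.20 ± 0.35 and the ratio by 0.33 ± 0.33, which is no more than the spread over frames. In the test, 0 members were higher and 4 lower, against 15.8% and 16.4% of all genes. At an unadjusted p under 0.05, edgeR had 1 higher and 7 lower of 37, against 283 and 343 of all 1465 genes. DESeq2 called 8 members, against 540 of all genes. The 4 were mt-Nd5 (-0.76 ± 0.22, adjusted p = 0.00565), mt-Nd3 (-0.64 ± 0.20, adjusted p = 0.011), mt-Nd1 (-0.52 ± 0.17, adjusted p = 0.0156) and mt-Co2 (-0.47 ± 0.16, adjusted p = 0.0193), each in 4 of 4 frames. These calls depended on the frames: 0 members were called without frame 1, 1 without frame 2, 1 without frame 3 and 7 without frame 4. Markers of other cells moved in the same comparison. The vessel genes Vwf (2.17 ± 0.32, adjusted p = 3.03e-07) and Myh11 (2.55 ± 0.44, adjusted p = 8.28e-06) were higher in the coat, as were Pmp22 (1.35 ± 0.47, adjusted p = 0.0203) of the Schwann list, S100b (1.49 ± 0.51, adjusted p = 0.0196) of the astrocyte list and Opn1sw (1.22 ± 0.39, adjusted p = 0.0146) of the cone list. Without some frames the last 3 missed the limit: Pmp22 without frame 2 (0.36) or 3 (0.092), S100b without frame 1 (0.066) or 3 (0.069) and Opn1sw without frame 1 (0.18) or 2 (0.056). The other tested gene of the astrocyte list, Gfap, went the other way (-1.09 ± 0.50, adjusted p = 0.085, higher in 0 of 4 frames). The other tested cone gene, Pde6h, did not pass (0.22 ± 0.35, adjusted p = 0.667, higher in 2 of 4 frames). So these 2 lists did not move as a whole. The 6 vessel genes summed to 390 to 1391 CPM in pigmented and 627 to 1375 CPM in fibrous frames, against 89.2 to 178 in rod, 164 to 781 in inner nuclear and 345 to 494 in ganglion frames. Vwf and Myh11 were the only 2 of these 6 genes tested. Rgs5 of that list had 36 of 285969 UMIs in the pigmented and 18 of 135925 in the fibrous region. It had 107 of 650021 in the ganglion region, so the coat did not exceed the ganglion region in every vessel gene. Of the Schwann list, Ncmap was at 0 UMIs in pigmented and fibrous spots. Their part in the coat result was not tested.

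Within the coat, the pigmented region had a higher nuclear sum than the fibrous region in 4 of 4 frames (0.25 ± 0.08), at 19471 ± 900 against 16390 ± 1270 CPM. Without Ndufa4 and Cox7a2 the difference was 0.02 ± 0.07, above 0 in 2 of 4 frames. Its mitochondrially encoded sum was 18451, 25224, 30148 and 43847 CPM against 18177, 18779, 17466 and 24680, higher in each frame and by 0.52 ± 0.38. The wide range in the pigmented region came with 17 to 153 spots per frame, 17 of them in frame 4. By edgeR's test 0 of 37 members passed in either direction, against 1.84% of all genes higher and 1.37% lower. DESeq2 called 0 members, against 84 of 1465 genes. At an unadjusted p under 0.05, 6 members were higher and 0 lower: mt-Co1, mt-Co2, mt-Co3, mt-Nd2, mt-Nd4 and Ndufa4, named after their values were seen. Of all 1465 genes, 96 were higher and 132 lower at that limit. Library-total scaling moved the share of higher among all called genes from 57.4% to 41.0%.

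In the muscle region skeletal muscle genes such as myosins led, while Myh13 and Tnnc1 of the muscle panel were not detected. Its nuclear sum was 25781, 27592, 20703 and 20848 CPM (23731 ± 3492). Against the neural layers it was higher in 4 of 4 frames (log2 0.53 ± 0.13), and still by 0.42 ± 0.11 without Ndufa4 and Cox7a2. Complex I (0.56 ± 0.27) and complex IV (0.68 ± 0.20) were higher in 4 of 4 frames, and without Ndufa4 and Cox7a2 they were at 0.42 ± 0.50 (3 of 4) and 0.53 ± 0.19 (4 of 4). Among the other sums, complex III differed by 0.90 ± 0.78 and complex V by 0.03 ± 0.63. The mitochondrially encoded sum was 31359 ± 6059 CPM. Rod panel genes were at 17619 to 36125 CPM in these spots. In the test, 0 members were higher and 1 lower, against 4.16% and 10.2% of all genes. At an unadjusted p under 0.05 there were 0 higher and 3 lower of 37, against 101 and 356 of all 1465 genes. DESeq2 called 2 members, against 138 of all genes. The one lower was mt-Nd3 (-1.17 ± 0.40, adjusted p = 0.0406, lower in 3 of 4 frames), with adjusted p of 0.39, 0.18 and 0.25 without frame 1, 2 or 3. The scaling moved this comparison: the median of all genes was -0.57 with TMM factors and -0.24 with library totals, and the share of higher among called genes went from 28.9% to 62.6%. CPM and the test also differ in that the test leaves panel genes out of the totals.

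Complex IV has muscle isoforms for 3 of its subunits, Cox6a2, Cox7a1 and Cox8b, which replace Cox6a1, Cox7a2 and Cox8a in heart and skeletal muscle. Cox6a2 had 18 UMIs in all spots and 7 in the muscle region (38.9%), Cox7a1 45 and 8 (17.8%), and Cox8b 72 and 6 (8.33%), although the muscle region holds 55 of 4603 spots. Pooled over frames, Cox6a2 was at 216 CPM in muscle (exact 95% Poisson interval 86.8 to 445) and 1.03 CPM in the rod region (0.026 to 5.72). Cox7a1 was at 247 CPM (107 to 486) against 3.08 (0.635 to 9.003), and Cox8b at 185 CPM (67.9 to 403) against 15.4 (8.62 to 25.4). For each isoform the muscle interval lay above the rod interval. Cox8b was not separated in this way from the pigmented region, which held 24 of its 72 UMIs. Its level there was 83.9 CPM (53.8 to 125), an interval that overlaps that of muscle. Intervals cover counting error only.

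As a share of isoform pairs, Cox6a2 was 7 of 10 UMIs in muscle (70.0%, exact binomial 95% interval 34.8% to 93.3%) and 0.952% in the rod region. Cox8b was 54.5% in muscle (23.4% to 83.3%), 26.4% in the pigmented region (17.7% to 36.7%), 7.11% in the rod region (4.03% to 11.5%) and 0 of 101 in the ganglion region. Cox7a1 remained a minor part of its pair in muscle spots, at 5.16% (2.25% to 9.92%) against 0.126% in the rod region. So Cox7a2 was the main form of that pair in muscle spots, whose rod panel level is given above. In a fit with no filter on low counts, which tested 95 members among 16452 genes, 3 members were higher in muscle and 6 lower, against 0.304% and 2.64% of all genes. The 3 were Cox6a2 (log2 4.86 ± 1.05, adjusted p = 0.000693), Cox7a1 (3.52 ± 0.83, adjusted p = 0.00251) and Cox8b (3.50 ± 0.89, adjusted p = 0.00685). The 6 lower were all mitochondrially encoded, in a fit where the median of all genes was -1.35.

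**Figure D5:**
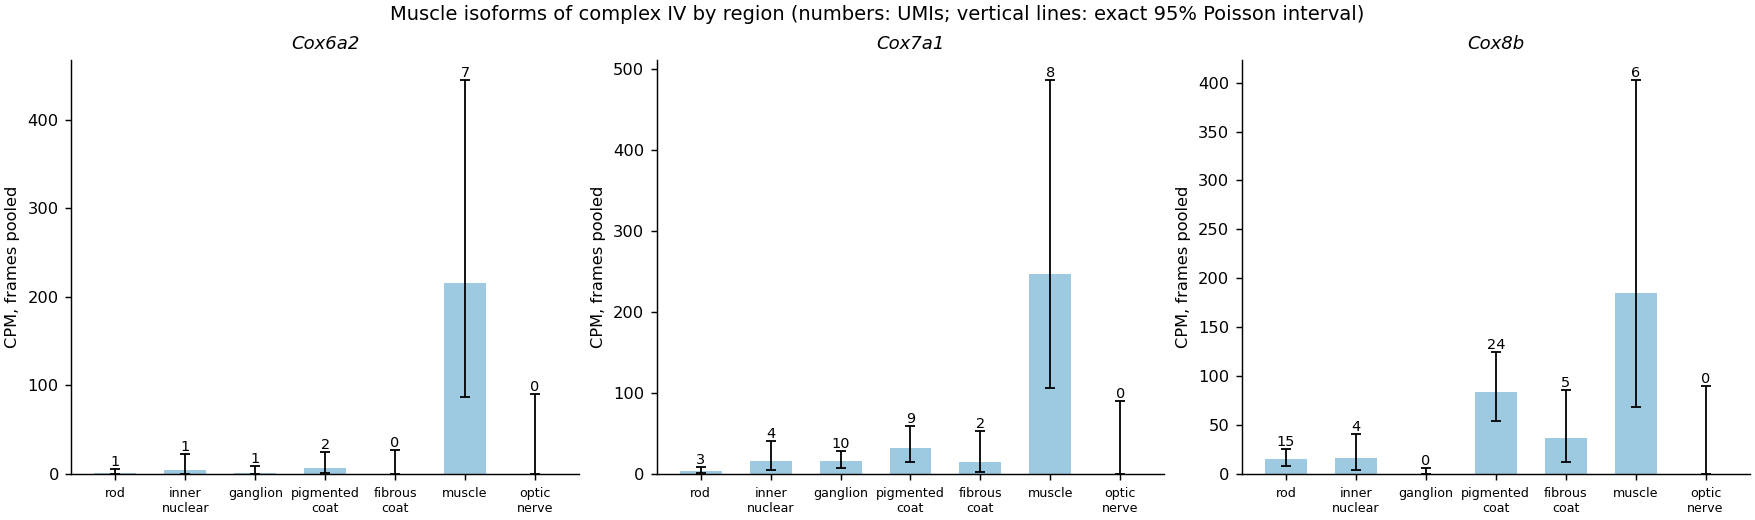
Pooled CPM of Cox6a2, Cox7a1 and Cox8b in each region, with vertical lines for the exact 95% Poisson interval of the pooled count. The muscle values are 216, 247 and 185 CPM, and Cox8b is also at 83.9 CPM in the pigmented region.

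Other isoforms had low counts. Cox4i2, the form of COX4 known from lung and from low oxygen, was 3.61% of Cox4i1 plus Cox4i2 in the rod region, 9.52% in the inner nuclear region, 7.98% in the ganglion region and 13.6% in the fibrous region. Ndufa4l2, the hypoxia-inducible relative of Ndufa4, had 7 UMIs in the fibrous region, 1.09% of that pair, and 0 in muscle and nerve. Cox6b2, known as a testis form, was 16.1% of its pair in the pigmented region, from 10 UMIs.

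Genes that serve the chain were followed from lists of assembly factors, tricarboxylic acid cycle enzymes, mitochondrial gene expression factors and carriers. Of 48 assembly factors 4 were tested, and 2 passed in a comparison: Ecsit, an assembly factor of complex I, higher in ganglion than rod (0.88 ± 0.39, adjusted p = 0.0487), and Cox11, which delivers copper to complex IV, lower in nerve than ganglion (-1.69 ± 0.60, adjusted p = 0.0256). Each was lost without some frames: Ecsit without frame 1 (0.26), 2 (0.15) or 3 (0.052), and Cox11 without frame 1 (0.075) or 2 (0.098). Of 20 cycle enzymes 2 were tested. Ogdh, the E1 subunit of oxoglutarate dehydrogenase, was higher in ganglion than rod (0.97 ± 0.32, adjusted p = 0.00878) and than inner nuclear (1.28 ± 0.38, adjusted p = 0.0117), with adjusted p of 0.057 without frame 1 and 0.12 without frame 3. Fh1, fumarase, was higher in muscle (0.78 ± 0.26, adjusted p = 0.0383), but not without frame 3 (0.24) or 4 (0.29). None of 26 genes for mitochondrial gene expression had enough counts for the fit over all regions.

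Of 14 carriers and kinases that move ADP, phosphate and creatine, 6 were tested. Vdac1, the outer membrane pore, was higher than in rod in the inner nuclear region (1.04 ± 0.29, adjusted p = 0.00355) and the ganglion region (0.80 ± 0.27, adjusted p = 0.0106), and lower in nerve than ganglion (-1.91 ± 0.63, adjusted p = 0.0168). It missed the limit for inner nuclear without frame 1 (0.086) or 2 (0.065), for ganglion without frame 2 (0.10) and for nerve without frame 4 (0.12). Ckb, brain creatine kinase, was lower in the coat (-0.87 ± 0.26, adjusted p = 0.00625) and in muscle (-2.41 ± 0.74, adjusted p = 0.024) and higher in nerve than ganglion (1.27 ± 0.42, adjusted p = 0.0162). These were lost without frame 2 (0.16) for the coat, frame 1 (0.13) or 2 (0.20) for muscle, and frame 3 (0.24) or 4 (0.32) for the nerve. Ckm, muscle creatine kinase, was higher in muscle than in the neural layers (6.25 ± 0.73, adjusted p = 1.15e-09, 4 of 4 frames).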

How the data were processed

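The data are whole-number counts of UMIs per gene and spot from 4 Visium frames, deposited by the authors. The file headers name Space Ranger 2.0.0 and, per the submitters' processing notes, the build was mm10. The annotation release is not given in the sources used here. Members and lists were chosen with earlier results of these data known. Spots with at least 20 panel UMIs took the marker class with the highest Pearson residual, if at least 2. Levels are CPM of all UMIs of a frame and region with at least 5 spots. Tests used edgeR 4.0.16 in R 4.3.3 (robust quasi-likelihood, TMM, filterByExpr with minimum count 10, prior count 2, limit 0.05), panel genes left out, frame as block. All regions share 1 fit. The pairing comes from regions of the same frame, where leftover values correlated from -0.053 to 0.233 over 1465 genes. DESeq2 1.42.0, other scalings, filters, region rules and leaving out each frame were alternatives. The script was tested on simulated data with a set spread and no other differences between regions. Changes of 1 on the log2 scale were recovered in 80.5% of changed genes for inner nuclear minus rod and 15.2% for nerve minus ganglion. For changes of 2 these were 97.6% and 85.1%. A nerve member not called may thus still differ. Named genes were, per complex and comparison, up to 2 per direction with the lowest p among those passing, all mitochondrially encoded members and isoform pairs. Spot images and positions were not used here.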

Additional observations from a re-analysis of the deposited data

Results flagged for a closer look

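In the ganglion region, frame 1 stood apart from the other 3 frames in the complex III sum, at 931 CPM against 690 to 728. In the pigmented region, frame 4, with 17 spots, stood apart in the nuclear sum, at 18123 CPM against 19845 to 19976. Chance sets a frame apart in this way in about 1 in 20 groups of this size. In all, 48 groups of 4 frames were screened, and the 2 flags are no more than that rate gives.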

How the results depend on the processing

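The counts of members called were the values that changed most with the processing, and their cause was not tested unless the setting itself changes which genes are tested. The main fit tested 37 members, no filter 95, Leiden regions 78, and at least 50 or 10 panel UMIs 32 and 38. A lead of 2 or spots low in rod markers left 25, a frame left out 27 to 69, and the compared regions alone 31 to 86. Counts of calls between such settings are therefore not like for like. For inner nuclear minus rod, the 4 calls became 2 with no replicate block, 9 with the 2 regions fitted alone, 1 with Leiden regions, 1 with at least 50 panel UMIs and 2 to 4 with a frame left out. The block, which pairs regions of 1 frame, changed no other count of calls by over 1.5 times. For ganglion minus rod, the 10 calls of 37 tested became 27 of 86 with the 2 regions alone and 5 of 32 with at least 50 panel UMIs. They became 6 to 12 with a frame left out, the 12 of 69 tested. For ganglion minus inner nuclear, the 1 call became 4 with DESeq2, 3 without TMM factors, 3 with the 2 regions alone, 2 with Leiden regions, 2 with at least 50 and 2 with at least 10 panel UMIs, and 0 with spots low in rod markers. For coat minus neural retina, the 4 calls became 8 with DESeq2, 8 with no filter, 1 with at least 50 panel UMIs, 8 with at least 10 and 0 to 7 with a frame left out. For pigmented minus fibrous, the 0 calls became 3 with a lead of 2 in the residual, 2 with at least 50 panel UMIs, 1 with spots low in rod markers and 0 to 2 with a frame left out. For muscle minus neural retina, the 1 call became 2 with DESeq2, 2 without TMM factors, 9 with no filter, 4 with these regions alone, 6 with Leiden regions, 0 with at least 50 panel UMIs, 0 with at least 10, 2 with spots low in rod markers and 0 to 7 with a frame left out. For nerve minus ganglion, the 10 calls became 2 with the regions alone, 6 with at least 50 panel UMIs and 4 to 9 with a frame left out.

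Log2 folds of named genes were counted once per gene, comparison and alternative setting. Of these, 2284 kept their side of the limit, 191 lost the call, 71 gained it and 6 reversed. A fold was counted as reversed only if it changed direction and was called in either setting. Folds called in neither setting, which had no call to lose, are counted among the 2284, also where they changed direction. So the 2284 do not measure how stable the calls were. The reversed folds were Fh1 in muscle with no filter (-0.00135), mt-Atp6 (-0.19) and mt-Co3 (-0.020) in the nerve with no filter, and in the nerve with a frame left out mt-Co2 (-0.031 without frame 4, range to 1.21), mt-Co3 (-0.054 without frame 4, range to 1.06) and Vwf, a vessel gene (-0.86 without frame 3, range to 2.28).

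Leiden regions gave a mitochondrially encoded sum of 26414 CPM and a ratio of 0.575 in the inner nuclear region, and nuclear sums of 18830 in the rod, 18463 in the fibrous and 28065 in the muscle region. With panel genes left out of the denominator, the nuclear sum was 21957 in the rod, 20597 in the pigmented and 9473 in the nerve region, and the mitochondrially encoded sum 56191 in the nerve. Spots with at least 500 UMIs gave a mitochondrially encoded sum of 23618 in muscle, and at least 50 panel UMIs a ratio of 0.720 in the ganglion region. Without mt-Atp6, the mitochondrially encoded member with most UMIs, the ratio was 0.857 in the rod, 0.572 in the inner nuclear region, 0.761 in the ganglion region and 1.01 in the fibrous region. Without Ndufa4 it was 0.420, 0.364, 0.483 and 0.610 there, and 0.532 in muscle.

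Without Ndufa4 and Cox7a2 the nuclear sum was 9189 CPM in the rod, 8683 in the inner nuclear, 8358 in the ganglion, 9192 in the pigmented, 9090 in the fibrous, 11730 in the muscle and 4344 in the nerve region. The ratio was then 0.331, 0.292, 0.352, 0.347, 0.473, 0.386 and 0.100 in the same order, lowest in the nerve again. This setting and that of spots low in rod markers were chosen after the data were seen. Depth limits the muscle and nerve regions most, with 55 and 81 spots and median UMIs of 508 and 389.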
